A study of Drosophila melanogaster with 5 samples.

Results

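MLE (Maleless) was called at 246 autosomal euchromatin regions in both libraries of control female Drosophila melanogaster embryos aged 0-2 h, out of 2263 regions found in the series. These regions were chosen by position and by call. Peaks of all 5 lists that shared at least 1 bp were merged, and a merged region was kept when it held a peak of both 0-2 h controls and started below 20500000 on chr2L, at or above 3000000 on chr2R, below 25100000 on chr3L or at or above 3000000 on chr3R (dm6 assembly). No mark of chromatin state was measured, so euchromatin here means these limits alone. Of all regions with a peak in both 0-2 h controls, which numbered 602, the 246 lay on autosomal euchromatin, 245 on the X arm, 21 near the autosomal centromeres or on chromosome 4, and 90 off the main arms.

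MLE is an RNA helicase best known as a subunit of the male dosage compensation complex, in which it remodels the non-coding roX RNAs so that the complex can assemble and act on the X chromosome. In females that complex does not form, and MLE is also known to act on RNA away from it. CLAMP, which has zinc fingers and recognises GA repeats, recruits that complex in males. In early fly embryos the genome is largely silent and development runs on maternal products until zygotic transcription starts.

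The assay was CUT&RUN, in which an antibody on permeabilised embryos guides a DNA-cutting nuclease to its target and the released fragments are sequenced. The 0-2 h clampRNAi group had 1 library, from embryos of MTD-GAL4>CLAMPRNAi mothers, and was collected before the maternal-to-zygotic transition. The 2-4 h controls (2 libraries) and the 0-2 h controls (2 libraries) came from MTD-GAL4>GFPRNAi mothers and were collected after and before that transition. MTD-GAL4 drives expression in the female germ line, so the RNA interference was maternal, and all groups carried this driver and a hairpin. Embryos of all groups were made female with a meiotic drive cross whose sperm carry only X, and all libraries used a rat antibody against MLE. Several batches of crosses were used, the labels tie no library to one, and p-values between groups measure only the spread between these libraries. CLAMP itself and the tissue could not be checked, since no RNA was measured.

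The lists held 493 peaks in the clampRNAi library, 370 and 1589 in the 2-4 h controls (replicates 1 and 2) and 723 and 1247 in the 0-2 h controls. Read depth is unknown. The second 2-4 h replicate stands apart, with a median peak width of 2190 bp over its whole list against 81 to 110 bp in the other lists, and its calls are given for it alone. Signal below is the authors' value per peak, on a scale that is not known to be the same between libraries. A percentile is the rank of a peak's total signal within its own list, and since the lists differ in length it gives no change between them. Background cutting by the nuclease was not measured here, as each library had the antibody.

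Most peaks at the regions were narrow in every library but 2-4 h replicate 2. Median peak width at the regions was 72 bp in the clampRNAi library, 75 bp and 714.5 bp in the 2-4 h controls and 72 bp and 85 bp in the 0-2 h controls. Peaks narrower than the 150 bp reads made up 81.1% of them in the clampRNAi library, 85.1% and 20.3% in the 2-4 h controls and 83.7% and 71.1% in the 0-2 h controls. The point of maximum signal moved little between libraries. For the 10 pairs of libraries the median distance between maxima was 1 or 2 bp, and 91.4% to 99.3% of regions had maxima within 10 bp of each other. This held for the broad list too, where 93.8% of 128 regions had the maximum within 10 bp of that in 0-2 h replicate 2.

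**Figure D1:**
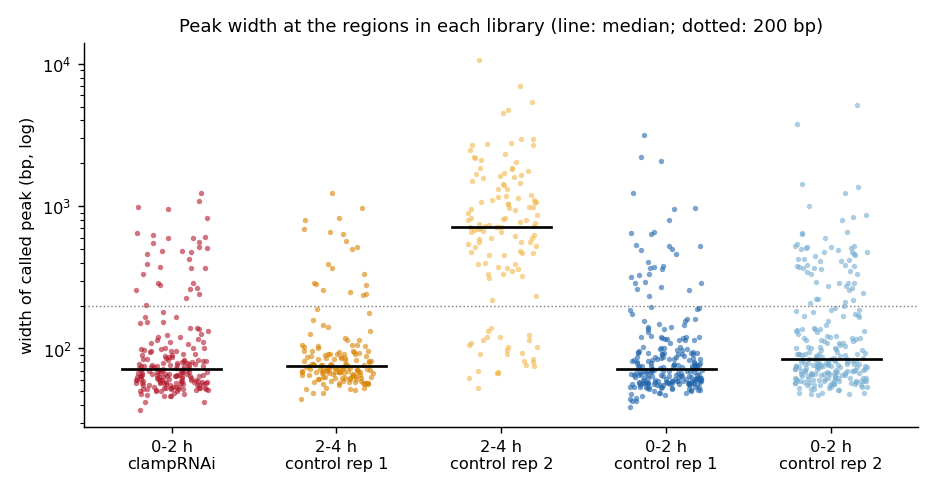
Width of the called peak (bp, log axis) at each region in the 5 libraries, with 1 point per region and a line at the median. The medians are 72 bp after clampRNAi, 75 bp and 714.5 bp in the 2-4 h controls and 72 bp and 85 bp in the 0-2 h controls.

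The calls of 3 libraries were free of the rule that chose the regions, namely the clampRNAi library and each 2-4 h control. The clampRNAi library called 206 of the 246 regions, 83.7% (Clopper-Pearson 95% interval 78.5% to 88.1%), against 35.9% of all 1317 regions of the series with a peak in at least 1 of the 0-2 h controls. Replicate 1 of the 2-4 h controls called 154 regions, 62.6% (56.2% to 68.7%), against 26.7% of that background. Replicate 2 called 128, 52.0% (45.6% to 58.4%), against 49.2%, a share near the background. All 5 libraries called 115 regions, 46.7% (40.4% to 53.2%), against 20.8%. Neither 2-4 h control called 79, 32.1% (26.3% to 38.3%), against 45%. With 0-2 h replicate 1 left out of the rule, 502 regions had a peak in 0-2 h replicate 2, and these include the 246. Their shares were 41.8% in the clampRNAi library, 31.1% in 2-4 h replicate 1, 23.1% in all libraries left and 48.6% in neither 2-4 h control. At a reciprocal overlap of 50% the share in all libraries was 12.2% and that in 2-4 h replicate 2 was 15.3%. The background includes these regions, and the intervals cover counting error over regions only. Since clampRNAi had 1 library, the genotypes could not be compared by a test.

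The X arm regions chosen in the same way had call shares that lay inside the intervals of the autosomal shares. The clampRNAi library called 83.7% of the autosomal regions and 78.8% of the 245 X regions. For the 2-4 h controls the shares were 62.6% of autosomal against 63.7% of X regions in replicate 1, and 52.0% against 56.3% in replicate 2. The density of regions was 2.54 per Mb over the 96.96 Mb of autosomal euchromatin and 10.4 per Mb over the whole 23.54 Mb of X. By arm it was 1.90 per Mb on 2L (39 regions), 2.83 on 2R (63), 2.15 on 3L (54) and 3.10 on 3R (90).

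Regions on autosomal euchromatin with a peak in only 1 of the 0-2 h controls were called less often in the other libraries, and they ranked lower in the 0-2 h lists. Of those 308 regions the clampRNAi library called 5 (1.62%), 2-4 h replicate 1 called 3 (0.974%) and 2-4 h replicate 2 called 91 (29.5%). Replicate 2 of the 0-2 h controls supplied 256 of them, and 90 of these were called in 2-4 h replicate 2. Their median percentile was 13.3 for those of 0-2 h replicate 1 and 28.8 for those of replicate 2. For the 246 regions it was 54.5 and 63.4. In 2-4 h replicate 2 the order was the other way. There the median percentile was 75.8 for the 91 regions and 56.0 for the 128 of the 246 that were called. The part of these ranks in the shares was not tested.

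The calls of 2-4 h replicate 1 were nearly nested in those of the clampRNAi library. Of the 154 regions of 2-4 h replicate 1, 153 were also called after clampRNAi, and the exception (chr2R:13194607-13195129) lay inside Kdm4B, which encodes a histone demethylase. The clampRNAi library called 53 regions that 2-4 h replicate 1 did not. Of 8 possible patterns of call in the 3 libraries, 7 occurred, led by all 3 libraries (115 regions), clampRNAi alone (44), clampRNAi with 2-4 h replicate 1 (38) and none of the 3 (35). The remaining patterns were clampRNAi with 2-4 h replicate 2 (9 regions), 2-4 h replicate 2 alone (4) and 2-4 h replicate 1 alone (1).

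In the largest patterns the calls followed the order of signal in the 0-2 h controls. In 0-2 h replicate 1 the median percentile was 77.7 for regions called in all 3 libraries, 51.7 for those of clampRNAi with 2-4 h replicate 1, 33.7 for those of clampRNAi alone and 19.2 for those of none. In 0-2 h replicate 2 these medians were 77.6, 59.3, 49.7 and 40.5. The 4 regions of 2-4 h replicate 2 alone went against this order, with medians of 40.3 and 83.3 in 0-2 h replicates 1 and 2. The regions were then put in 4 groups by percentile in 0-2 h replicate 1. The clampRNAi library called 25 of 62 in the lowest group, then 59 of 61, 60 of 61 and 62 of 62. For 2-4 h replicate 1 the counts were 1, 33, 58 and 62, and for 2-4 h replicate 2 they were 6, 13, 47 and 62. All 62 regions of the highest group were thus called in every library.

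**Figure D2:**
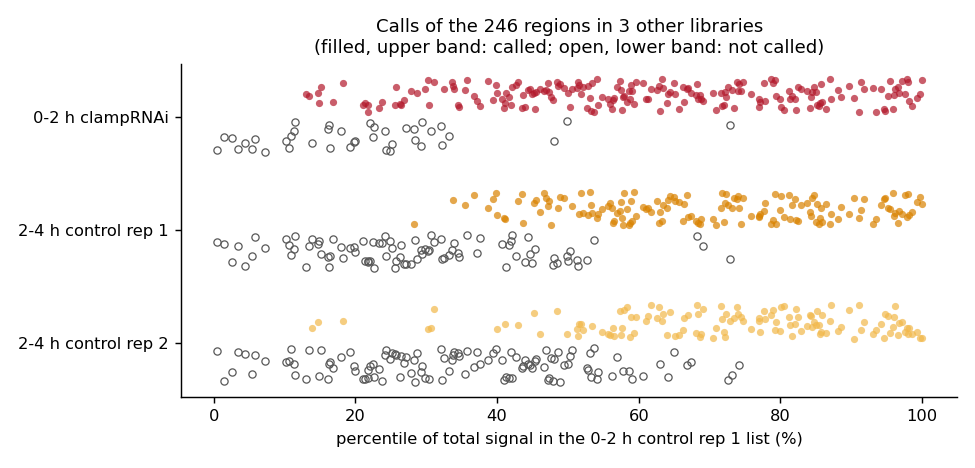
Each point is 1 of the 246 regions, placed by its percentile of total signal in the list of 0-2 h control replicate 1, and shown as called (filled) or not called (open) in the clampRNAi library and the 2-4 h controls. Open points gather at low percentiles, and the 62 regions of highest percentile are filled in each of the 3 libraries.

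The lists ended at different signals, and these values moved with the calls. The lowest total signal of any peak was 6840 in the clampRNAi list, 13050 and 18175 in the 2-4 h lists and 10424 and 5960 in the 0-2 h lists. To set the regions beside these ends, the total signal in 0-2 h replicate 1 was multiplied by the median ratio of total signal between the libraries, taken over the regions called in both. Of the 40 regions not called after clampRNAi, 24 came out below the lowest total of that list, as did 11 of the 206 that were called. Of the 92 not called in 2-4 h replicate 1, 73 came out below its lowest total, as did 10 of the 154 called. Scaled from 0-2 h replicate 2, 112 of the 118 regions not called in 2-4 h replicate 2 came out below, as did 15 of the 128 called. The part of depth and of the calling threshold in the missing calls was not tested.

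Signal at the shared regions kept nearly the same proportions across stage and genotype within 1 set of libraries. For each pair of libraries the ratio of maximum signal at each region called in both was divided by the median ratio over those regions. This takes out any single scale factor, and regions not called in both have no ratio. Between the clampRNAi library and 0-2 h replicate 1, 198 of 206 regions (96.1%) lay within 1.5-fold of the median ratio. Between 2-4 h and 0-2 h replicate 1 it was 150 of 154 (97.4%), and between clampRNAi and 2-4 h replicate 1 it was 151 of 153 (98.7%).

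The replicates 2 formed the other set. Between 2-4 h and 0-2 h replicate 2, 114 of 128 regions (89.1%) lay within 1.5-fold of the median ratio. Across the sets agreement was lower, at 170 of 206 (82.5%) for clampRNAi and 0-2 h replicate 2, 79 of 115 (68.7%) for the 2-4 h replicates and 195 of 246 (79.3%) for the 0-2 h replicates. By this share the replicate controls of each age were farther from each other than the clampRNAi library was from 0-2 h replicate 1. The shares cover different regions, however. The 40 regions not called after clampRNAi, of median percentile 19.8 in 0-2 h replicate 1, are in the share of the 0-2 h replicates. They are not in that of clampRNAi with 0-2 h replicate 1. On the X arm the same shares were 99.5% for clampRNAi with 0-2 h replicate 1, 89.9% for the replicates 2 and 77.6% for the 0-2 h replicates. The points of these comparisons share peak sets and base composition, and what sets replicates 1 and 2 apart is not given in the labels. These shares describe the libraries and were not tested.

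The few regions off the median ratio were named after their values were seen. Between clampRNAi and 0-2 h replicate 1 there were 8, of which 7 lay below the median ratio, but 5 of these 7 lay above it when clampRNAi was set against 0-2 h replicate 2. The farthest, alphaTub84B, was 2.05-fold below the median ratio over replicate 1 and 2.00-fold above that over replicate 2, with maxima of 41 after clampRNAi and 163 and 45 in the 0-2 h controls. The shot region was 1.78-fold below over replicate 1 and 2.08-fold above over replicate 2, with 157 after clampRNAi and 542 and 166 in the 0-2 h controls. Over both 0-2 h controls, 2 regions stayed over 1.5-fold below, in Glg1 and brp, and 1 stayed over 1.5-fold above, in Pka-R2. Over replicates 1 and 2, Glg1 was 1.56-fold and 4.22-fold below, and brp 1.54-fold and 7.82-fold below. The Pka-R2 region was 1.69-fold above over replicate 1 and 6.40-fold above over replicate 2. All of these also lay off the median ratio of 0-2 h replicate 2 over replicate 1. Glg1 was 2.65-fold and brp 4.98-fold above it, and Pka-R2 was 3.86-fold below it. In brp the maximum of 0-2 h replicate 2 was at position 9540362, against 9540583 after clampRNAi and 9540584 in replicate 1. Of the 115 regions called in all control libraries, 108 lay within 1.5-fold of the median 2-4 h over 0-2 h ratio in both replicates, and 0 were over 1.5-fold below it in both. Regions without a 2-4 h call have no such ratio, among them the 79 called in neither 2-4 h control. A region whose signal fell below the end of a 2-4 h list could therefore not enter this count, so the 0 does not show that none fell.

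**Figure D3:**
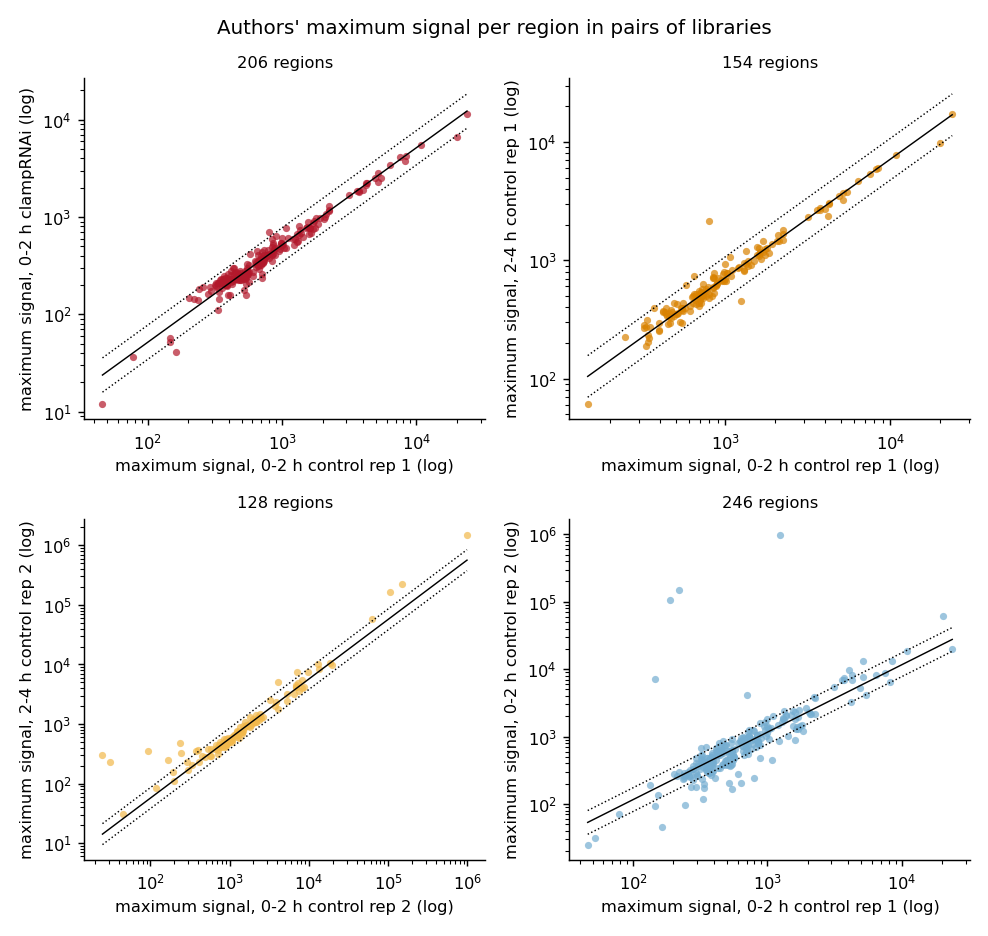
Authors' maximum signal per region (log axes) in 4 pairs of libraries, clampRNAi against 0-2 h control replicate 1, 2-4 h against 0-2 h control in replicates 1 and 2, and 0-2 h control replicate 2 against replicate 1. The solid line is the median ratio and the dotted lines lie 1.5-fold from it, holding 96.1%, 97.4%, 89.1% and 79.3% of the regions in that order.

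At the 10 leading regions the maximum signal was lower after clampRNAi than in 2-4 h replicate 1, and lower there than in 0-2 h replicate 1, in 10 of 10, an order that the shared regions as a whole also had. Over all shared regions the median log2 ratio was -0.51 for clampRNAi over 2-4 h replicate 1, -0.49 for 2-4 h over 0-2 h replicate 1 and -0.81 for 2-4 h over 0-2 h replicate 2. Depth and scale are unknown, and their part was not tested. The highest mean percentile among the regions called everywhere belonged to chr3L:21497986-21499896 inside Glg1, a gene for a Golgi membrane protein. Its maximum signal was 6691 after clampRNAi, 9795 and 57459 in the 2-4 h controls and 20182 and 62101 in the 0-2 h controls. Both replicates 2 were thus above the other 3 libraries. At chr3R:3344494-3345038, inside the steroid-synthesis gene spok, it was 11465 after clampRNAi, 17375 and 9944 in the 2-4 h controls and 23784 and 19762 in the 0-2 h controls, with the 0-2 h controls highest.

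The chromatin gene gpp, whose product methylates histone H3, held a region at chr3R:6416546-6416876. Its maximum signal was 5486 after clampRNAi, 7687 and 10574 in the 2-4 h controls and 10868 and 18515 in the 0-2 h controls. A further gpp region at chr3R:6413824-6414587 was called in all libraries as well. In the ubiquitin ligase gene ctrip (chr3R:4800492-4802983) the maxima were 4202 after clampRNAi, 5984 and 8329 in the 2-4 h controls and 8422 and 13262 in the 0-2 h controls. At both genes the clampRNAi library was lowest and 0-2 h replicate 2 highest.

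The other leading regions follow by gene. In side, a guidance gene for motor axons, the region chr3R:27426184-27426650 was 367 to 369 bp wide in 4 libraries and 467 bp in 2-4 h replicate 2, with maxima of 4171 after clampRNAi, 5394 and 4265 in the 2-4 h controls and 7516 and 8709 in the 0-2 h controls. In bru3, an RNA-binding protein gene of the Bruno family, chr3L:13629549-13630626 had maxima of 3793 after clampRNAi, 5885 and 3239 in the 2-4 h controls and 8185 and 6507 in the 0-2 h controls. Beside dpr16, a cell-surface immunoglobulin gene 1115 bp away, chr3R:5149291-5150859 was wide in every library, at 948 to 1353 bp. Its maxima were low beside those of the other leading regions, at 546 after clampRNAi, 786 and 570 in the 2-4 h controls and 855 and 853 in the 0-2 h controls. The other leading regions lay inside tei and CG6220 (chr2R:13691505-13692218), 489 bp from the amino acid transporter gene slif (chr3L:22894170-22895327) and 677 bp from CG14837 (chr3L:7560480-7561509).

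**Figure D4:**
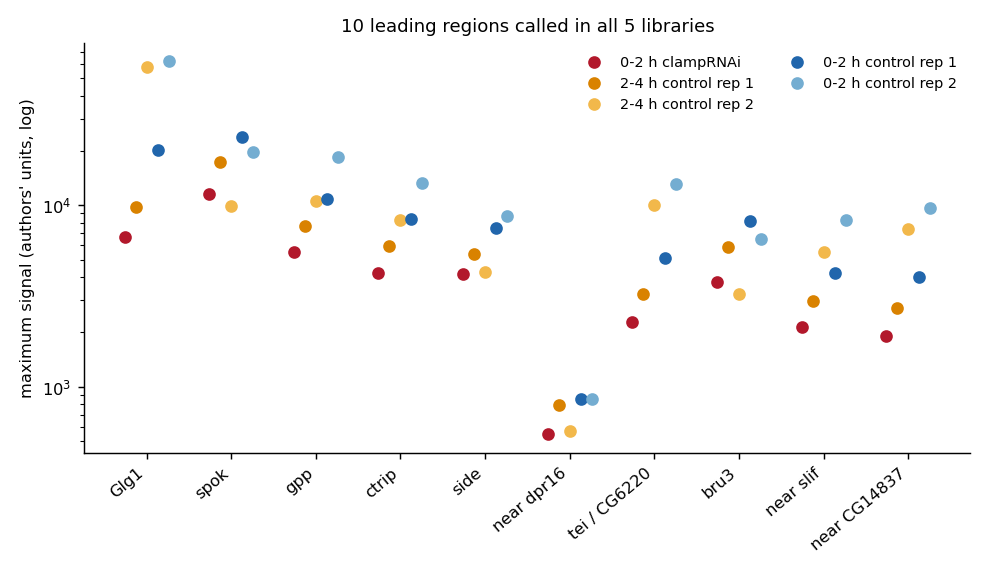
Authors' maximum signal (log axis) at the 10 regions of highest mean percentile among the 115 called in all 5 libraries, with 1 point per library and regions named by the gene that holds them or the nearest protein-coding gene. The clampRNAi library is the lowest at 8 of the 10, with 6691 at Glg1 and 1889 near CG14837, while the scale between libraries is unknown.

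A group of 4 regions had far higher signal in both replicates 2 than in the other libraries. They are singled out because the maximum in 0-2 h replicate 2 over replicate 1 was over 8-fold from the median ratio and this limit was chosen after the values were seen. Inside heph, the polypyrimidine tract-binding protein gene (chr3R:31954964-31955624), the maximum was 597 after clampRNAi, 453 and 1508910 in the 2-4 h controls and 1247 and 988806 in the 0-2 h controls. Inside the casein kinase gene dco (chr3R:31055528-31055641) it was 219871 in 2-4 h replicate 2 and 220 and 149346 in the 0-2 h controls. Inside Snap24, a SNARE gene of membrane fusion (chr3R:9761746-9762338), it was 166032 in 2-4 h replicate 2 and 189 and 105398 in the 0-2 h controls, and neither dco nor Snap24 was called in the remaining 2 libraries. A further region, in CG41099 (chr3R:3865559-3865892), had 57 after clampRNAi, 7353 in 2-4 h replicate 2 and 146 and 7076 in the 0-2 h controls. All 4 lay on 3R and all were higher in replicate 2. On the X arm 7 regions passed the same limit.

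Regions called after clampRNAi and in neither 2-4 h control had a median clampRNAi peak width of 57.5 bp and a median clampRNAi percentile of 15.2. Inside Rim, an active zone gene (chr3R:17901261-17901393), the maximum was 246 after clampRNAi and 551 and 557 in the 0-2 h controls. Inside E23, an ABC transporter gene of the ecdysone response (chr2L:3345822-3345869), it was 283 after clampRNAi and 544 and 623 in the 0-2 h controls. The other leading regions of this pattern lay in CG42674 (chr3L:20192018-20192246) and near CG15140 (chr2L:17282223-17282849).

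Regions called in the 0-2 h controls alone were 35. By mean percentile the first lay near CG12538 (chr3R:13516396-13517041), with maxima of 267 and 265. It was followed by a region inside Pka-R2, which encodes a regulatory subunit of protein kinase A (chr2R:10002628-10002711), with 371 and 445. Then came a region 6516 bp from CG10910 (chr2R:18028888-18028943), with 467 and 603, and one inside CG43373 (chr3L:16528457-16528664), with 389 and 529.

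The regions missing from 2-4 h replicate 2 but called after clampRNAi and in 2-4 h replicate 1 were led by Gapdh1, a glycolytic enzyme gene (chr2R:7792169-7792861). Its maximum was 143 after clampRNAi, 234 in 2-4 h replicate 1 and 337 and 171 in the 0-2 h controls. The next by mean percentile of these 38 regions lay near PpD5 (chr2R:22047278-22047429), in CG4022 (chr3L:9407327-9407973) and in ect (chr3L:10198242-10198591).

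Called after clampRNAi and in 2-4 h replicate 2, and not in 2-4 h replicate 1, were CG41099, brp, alphaTub84B and a region near CG44102 among others. In brp, the Bruchpilot active zone gene (chr2R:9540318-9542628), the maxima were 238 after clampRNAi, 5121 in 2-4 h replicate 2 and 708 and 4093 in the 0-2 h controls. In alphaTub84B, a tubulin gene (chr3R:7087227-7089081), they were 41 after clampRNAi, 31 in 2-4 h replicate 2 and 163 and 45 in the 0-2 h controls. Near CG44102 (chr2R:4863505-4868914) the peak was 1085 bp wide after clampRNAi, 5410 bp in 2-4 h replicate 2 and 3156 bp and 5120 bp in the 0-2 h controls, with maxima of 12, 301, 46 and 25 in the same order. Called in 2-4 h replicate 2 alone of the 3 libraries were dco, Snap24, Pzl (chr3R:3033143-3043737) and a region 9138 bp from CG33217 (chr3L:23110959-23117955). The mub and shot regions, named for their unlike ranks in the 0-2 h controls, had percentiles of 48.0 and 6.09 (mub, an RNA-binding protein gene) and 71.8 and 26.1 (shot, a cytoskeletal linker gene). The mIF2 neighbour at chr3R:28547441-28547502 had percentiles of 3.46 and 45.2 in lists of different length, while its maxima of 305 and 397 lay within 1.5-fold of the median ratio.

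At the limits of the rule the nearest regions on either side were as follows. On 3R the first inside was the Pzl region, 33142 bp from the limit, with maxima of 159 in 2-4 h replicate 2 and 133 and 194 in the 0-2 h controls. The nearest outside was also within Pzl (chr3R:2857375-2858446), with 31 after clampRNAi and 60 and 50 in the 0-2 h controls. On 3L the first inside was the region near CG33217, 1989042 bp from the limit, with maxima of 230 in 2-4 h replicate 2 and 52 and 31 in the 0-2 h controls, and the nearest outside was 29771 bp beyond the limit (chr3L:25129772-25135071), with 16, 311, 155 and 37 in the clampRNAi library, 2-4 h replicate 2 and the 0-2 h controls. On 2L and 2R the nearest regions lay 386868 to 837399 bp from the limit.

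The regions lay mainly inside long genes. The point of maximum fell inside a gene extent in 187 of 246 regions, 76.0% (Clopper-Pearson 95% interval 70.2% to 81.2%). Gene extents cover 70.3% of these arms, a value inside that interval, so this share was near the background. At most 500 bp from an end of a gene extent lay 33 regions, 13.4% (9.42% to 18.3%), against 19.99% of positions. The top length decile of protein-coding genes, those of 13557 bp and over, held 147 regions, 59.8% (53.3% to 65.9%), and covers 42.0% of positions. Of the 157 protein-coding genes that held a region, the median length was 36848 bp, against 2095 bp over all 11342 such genes, of which 1.38% held one. Longer genes cover more positions, and unlike the 59.8% against 42.0%, these medians leave that out of account. These shares were not tested, and gene strand, exons and introns were not used here. Regions on X lay inside gene extents in 78.4% and near gene ends in 8.98%.

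**Figure D5:**
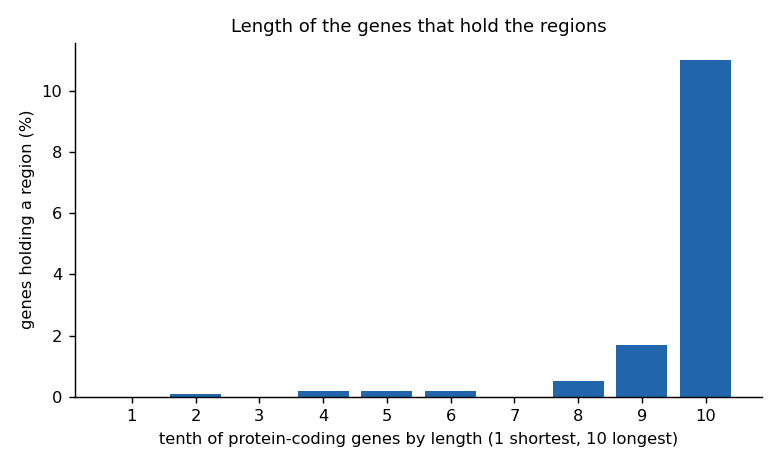
Percentage of protein-coding genes of the 4 autosomal arms within the limits that hold at least 1 of the 246 regions, by decile of gene length from shortest to longest. In the top decile 125 of 1135 genes hold one, in the next 1.68%, and in each of the other 8 at most 0.529%. Genes are counted without regard to the positions they cover.

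No gene extent held the maximum of 59 regions. Within 1000 bp of a small structural RNA or miRNA gene lay 4 regions, 1.63% against 1.05% of positions. The region over snRNA:U6:96Ab, a gene for the spliceosomal U6 RNA (chr3R:24555718-24557406), was broad in every library, at 1243 bp after clampRNAi, 1245 bp and 1689 bp in the 2-4 h controls and 1242 bp and 1246 bp in the 0-2 h controls. Its maxima were 171 after clampRNAi, 204 and 109 in the 2-4 h controls and 337 and 197 in the 0-2 h controls. The region beside the 5SrRNA:CR33445 gene (chr2R:19730707-19735658) was also broad, at 825 bp after clampRNAi, 823 bp and 4746 bp in the 2-4 h controls and 2221 bp and 995 bp in the 0-2 h controls.

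Several genes held more than 1 region. There were 23 such genes, all protein-coding. The Notch coactivator gene mam held 4, and bun, bru3, tei and CG45263 held 3 each. Among those with 2 were Gug, a transcriptional corepressor gene whose regions (chr3L:8455046-8455130 and chr3L:8456493-8456589) lay 1362 bp apart, gpp, whose regions lay 1958 bp apart, and ush, a GATA cofactor gene with 1993 bp between its regions. The closest pair lay 263 bp apart in fz2, which encodes a Wingless receptor. In all, 12 neighbouring pairs lay within 10 kb, against a median gap of 245.6 kb over 242 gaps.

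Gene lists, 12 in number, were set beside the background of 1.2% of the 14417 genes on these arms that held a region. Since long genes held more regions, the lists that held the most are given with their median gene length, and no list was tested. Of 20 genes of neural RNA binding and splicing, 7 held a region (median length of the list 90111 bp), namely bru3, heph, Rbfox1, bru1, pum, mub and Rbp6. In Rbfox1 the maximum was 262 after clampRNAi, 439 in 2-4 h replicate 1 and 713 and 761 in the 0-2 h controls, and it was not called in 2-4 h replicate 2. Of 15 steroid and ecdysone genes, 4 held one (31677 bp), spok, ftz-f1, Eip93F and Eip78C. In ftz-f1, a nuclear receptor gene, the maximum was 629 after clampRNAi, 906 and 546 in the 2-4 h controls and 1427 and 1030 in the 0-2 h controls.

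Among regulators of small GTPases, 4 of 21 genes held a region (17464 bp), trio, sif, Rho1 and siz. In trio, an exchange factor for Rac, the maximum was 2806 after clampRNAi, 3673 and 3635 in the 2-4 h controls and 5190 and 7588 in the 0-2 h controls. Of 24 actin and muscle genes 4 held one (21735 bp), Lasp, Zasp52, shot and Tm1, and Lasp, an actin-binding protein gene, had 1843 after clampRNAi, 2746 and 4843 in the 2-4 h controls and 3753 and 7279 in the 0-2 h controls. Of 42 guidance and adhesion genes 6 held one (39595 bp), among them side, Con, Ptp99A and sns.

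Of 36 patterning transcription factor genes 3 held a region (8.33%, median length of the list 4116 bp), opa, Abd-B and Antp. Of 20 Polycomb and trithorax genes 1 did (5%, 8260 bp), gpp. In opa, the odd-paired gene (chr3R:4867210-4868704), the maximum was 1300 after clampRNAi, 1655 and 2019 in the 2-4 h controls and 2251 and 3796 in the 0-2 h controls. The Hox gene Abd-B had 332 after clampRNAi, 518 and 456 in the 2-4 h controls and 642 and 840 in the 0-2 h controls. The Hox gene Antp had 207 after clampRNAi and 356 and 480 in the 0-2 h controls, and no call in the 2-4 h controls.

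Of 33 ion channel genes 2 held a region (6.06%, median length of the list 15964 bp), the calcium-activated potassium channel gene slo and KCNQ. In slo the maximum was 797 after clampRNAi, 1116 and 1307 in the 2-4 h controls and 1545 and 2360 in the 0-2 h controls. Of 30 kinase and phosphatase genes 2 held a region (6.67%, 17334.5 bp), Pka-R2 and dco. Of the GA-repeat binding protein genes, 1 of 2 did, psq, with 230 after clampRNAi and 366 and 348 in the 0-2 h controls. None of 5 dosage compensation genes and none of 3 histone genes on these arms held one.

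The share of peaks on autosomal euchromatin differed between ages by less than the spread between replicates. The comparison addresses whether autosomes took another part of the calls after the transition. Of the peaks on the main arms, 48.7% lay there after clampRNAi, 48.0% and 50.998% in the 2-4 h controls and 50.8% and 46.8% in the 0-2 h controls. The mean was 49.5% ± 2.10 at 2-4 h and 48.8% ± 2.83 at 0-2 h (SD, n = 2 each), a difference of 0.753 percentage points (two-sided exact permutation p = 0.667). With 2 libraries against 2 the smallest possible p is 0.333, which is above the threshold of 0.05. By replicate number, the 2-4 h minus 0-2 h difference was -2.73 points in replicate 1 and 4.24 points in replicate 2.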

How the data were processed

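CUT&RUN peak lists of 5 libraries were used, with groups and replicate numbers from the sample titles. The deposited lists give, per peak, the authors' total signal and maximum signal as whole numbers in the SEACR layout, with 1 list per library. Per the submitters' processing notes, bcl2fastq 2.17, Trimmomatic 0.40, Bowtie2 2.4.4, SEACR 1.3, deepTools and dm6 were named without roles. What control track, threshold or spike-in scaling was used is unknown here.

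Merging, percentiles, ratios and Clopper-Pearson 95% intervals were computed in Python 3.11.15 with pandas 2.3.3 and scipy 1.17.1, and checked on simulated data. Regions were placed by the midpoint of maximum signal in 0-2 h control replicate 1. Gene extents came from RefSeq (Release 6 plus ISO1 MT). Planned motif and promoter descriptions were not run. Coordinates are 1-based.

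Regions, lists and naming rules were chosen with earlier results of these data known. Named were the 10 leading regions, 4 per other call pattern, 6 of unlike rank, genes with several regions, up to 4 genes per list and those at the limits. Further names are said in the text to follow their values. Alternatives covered overlap, list length, peak width, limits, merging and each library left out, and total signal, narrow peaks, far regions and 3R, which were added after seeing the data. The list symbol His2B was not matched.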

Additional observations from a re-analysis of the deposited data

How the results depend on the processing

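Under the alternatives, 64 values were labelled the same, 29 moved and 5 turned direction. Shares were judged by their interval and the age difference by its direction. Counts of regions had no interval, and 189 and 298 against 246 were labelled the same. The 64 also include values that a setting could not change, such as the age difference of 0.753 points under another overlap rule. The tally is therefore no measure of robustness. With a reciprocal overlap of 50%, the share called was 74.1% in the clampRNAi library, 15.3% in 2-4 h replicate 2 and 12.2% in all libraries. With 370 peaks kept per list, 80 regions remained, called in 98.75% by clampRNAi, 98.75% and 36.25% by the 2-4 h replicates, 35% by all libraries and 0% by neither 2-4 h control. With peaks of at least 200 bp, 22 regions remained, called in 68.2% by clampRNAi, 50% and 77.3% by the 2-4 h replicates and 13.6% by neither, with 63.6% inside genes. The ratio share of the replicates 2 was 94.4% (17 of 18) with both peaks under 200 bp. The 2-4 h minus 0-2 h share turned to -2.14 points with 370 peaks, -2.30 with wide peaks, -0.458 with limits moved 1 Mb, -0.733 without 2-4 h replicate 2 and -1.25 without 0-2 h replicate 2. The causes were not tested.

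With each library left out in turn, regions numbered 246 to 502, and the shares ranged over 41.8% to 83.7% (clampRNAi), 31.1% to 62.6% and 43.3% to 52.0% (2-4 h replicates 1 and 2), 23.1% to 62.2% (all), 32.1% to 48.6% (neither 2-4 h) and 71.9% to 76.0% (inside genes), and the difference over -1.25 to 2.75 points. Without 0-2 h replicate 1 the 502 regions rest on 1 control, and the clampRNAi share was 41.8%, against 69.5% without 0-2 h replicate 2. With the replicate block (sign flips of both paired differences) the difference was 0.753 points with an exact permutation p of 1, the smallest possible being 0.5. Merging the 0-2 h lists alone moved no value. Read depth is unknown.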

Other observations

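A region inside Pka-R2 (chr2R:10023564-10024302), noticed after its values were seen, was the only one of the 115 called in all control libraries to lie over 1.5-fold above the median 2-4 h over 0-2 h ratio in both replicates. Its maximum signal was 698 after clampRNAi, 2136 and 482 in the 2-4 h controls and 798 and 240 in the 0-2 h controls. The 2-4 h over 0-2 h ratio stood 3.75-fold above the median in replicate 1 and 3.53-fold above it in replicate 2. Its level also differed between replicates of 1 age, and no test was made.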
